A study of Mus musculus with 4 samples.

Results

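The 46 genes described here encode the machinery that removes poly(A) tails, removes caps and then degrades messenger RNA. They were taken by name alone: protein-coding genes whose symbols begin with Cnot, Exosc or Lsm and a digit, with Dcp1, Dcp2, Edc3, Edc4, Xrn1, Xrn2 or Dis3, or that are Pan2, Pan3 or Patl1, out of 53715 listed genes. RNA was sequenced from CD4+CD8+ double-positive (DP) thymocytes, the stage at which T cell precursors assemble and test their receptor, sorted from thymus of C57BL/6 mice aged 6 to 8 weeks. The study compared 2 wild-type (WT) libraries, whose labels name no Cre and no floxed allele, with 2 knockout (KO) libraries of genotype LCKCre/+ Srsf1fl/fl. Srsf1 encodes an SR protein that guides splice site choice, and Lck-driven Cre is active in the T cell lineage from early thymocytes on. Nothing in the labels says that the libraries of a group came from separate animals, so p-values measure the spread between these libraries only, which may be technical.

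Most messenger RNAs decay after their poly(A) tail is shortened, first by the PAN2-PAN3 complex and then by the CCR4-NOT complex, which holds the scaffold CNOT1 and nucleases of the CCR4 type (CNOT6 or CNOT6L) and the CAF1 type (CNOT7 or CNOT8). The shortened message is then decapped by DCP2 with its activators and digested from its 5′ end by XRN1, or digested from its 3′ end by the exosome, a ring of EXOSC subunits that works with the nucleases DIS3, DIS3L or EXOSC10. In T cells these enzymes act on short-lived messages, among them those of cytokines.

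Total counts were 35862730 to 37033180 per library, so that 1 count was worth 0.0270 to 0.0279 CPM (counts scaled to a common library total). Throughout, a log2 difference is the fitted log2 fold change of KO over WT and is given ± its SE, and "called" means an adjusted p under 0.05 in the edgeR quasi-likelihood test. Srsf1, the targeted gene, stood at 4821 and 4485 counts in WT against 1839 and 1772 in KO (log2 difference -1.39 ± 0.095, adjusted p = 2.91e-06). The DP label was checked against 10 marker genes, whose summed level was 7932 to 8236 CPM in WT and 11290 to 11676 CPM in KO, with 6 called higher and 0 lower. A list of 10 cell cycle genes summed to 1566 to 1685 CPM in WT and 1987 to 2399 CPM in KO, with 7 called higher, and of 6 mature T cell genes 3 were called lower and 1 higher. Markers of other cell types were lower, and some moved with genotype. The sum of 6 B cell genes was 11.9 to 12.7 CPM in WT and 21.2 to 23.1 CPM in KO (Cd79b called higher), and that of 8 macrophage and dendritic cell genes 27.2 to 35.5 CPM in WT and 16.98 to 20.9 CPM in KO (Cd74 and H2-Aa called lower). No gene was called among 7 epithelial and stromal genes (12.7 to 14.6 CPM in WT and 12.4 to 14.3 CPM in KO, with Foxn1, Krt5 and Col3a1 at 0 counts throughout), 6 erythroid genes (1.171 to 5.26 and 0.54 to 3.05 CPM) and 5 natural killer cell genes (3.75 to 4.32 and 2.25 to 2.997 CPM, with Ncr1 at 0). The part of these differences in the members' values was not tested, and in bulk samples fewer cells of a type and less RNA per cell cannot be told apart.

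Sequence upstream of the start is shown for 3 of the 6 called genes, Cnot3, Lsm10 and Dcp1a, chosen with the motif matches in their windows known. Edc3 and Cnot8, also called, have windows with none of the 6 motifs searched, and Lsm4 was not matched. These are RefSeq windows of GRCm38.p6, the 250 bases before the RefSeq start, 5′ to 3′ on the plus strand. GENCODE places the start of Lsm10 and Dcp1a further upstream, so the last bases of these 2 windows lie inside the GENCODE gene, and the last base of the Cnot3 window is the GENCODE start. The Cnot8 window (chr11:58092544-58092793), the first of 4 for that gene, lies well upstream of the GENCODE start at 58104153. Its lack of motifs therefore does not describe the sequence at that start. Capitals mark CCAAT boxes on either strand in Cnot3 (chr7:3645019-3645268) and Lsm10 (chr4:126096403-126096652), and an NRF1 motif followed by an ETS core in Dcp1a (chr14:30479315-30479564).
Cnot3: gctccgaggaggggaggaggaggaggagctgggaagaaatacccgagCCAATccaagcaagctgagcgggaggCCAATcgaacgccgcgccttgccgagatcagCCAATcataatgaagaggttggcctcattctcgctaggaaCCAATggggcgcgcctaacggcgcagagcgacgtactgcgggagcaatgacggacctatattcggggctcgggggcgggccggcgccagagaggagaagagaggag
Lsm10: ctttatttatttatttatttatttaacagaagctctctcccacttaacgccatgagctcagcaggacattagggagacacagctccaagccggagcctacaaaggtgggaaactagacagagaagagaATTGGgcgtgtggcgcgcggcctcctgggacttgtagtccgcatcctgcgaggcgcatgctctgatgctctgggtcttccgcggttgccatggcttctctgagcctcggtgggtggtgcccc
Dcp1a: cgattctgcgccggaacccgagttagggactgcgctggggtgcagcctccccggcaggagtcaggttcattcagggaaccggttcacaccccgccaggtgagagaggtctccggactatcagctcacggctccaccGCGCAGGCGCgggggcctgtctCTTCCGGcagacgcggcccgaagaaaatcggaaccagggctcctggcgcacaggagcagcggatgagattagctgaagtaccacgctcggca

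The Cnot3 window holds 4 copies of CCAAT, and 1.6% of the 9559 tested genes with a window hold that many or more. The Lsm10 window holds 1, read on the minus strand. In the Dcp1a window the ETS core is read on the minus strand and does not overlap the NRF1 match. Windows were found for 38 of the 46 genes, and 8 (Cnot1, Cnot7, Dcp2, Lsm1, Lsm4, Lsm12, Exosc4 and Exosc9) were not matched, and the first start was used for 7 with several. Searched on both strands, the NRF1 motif (any base at its sixth position) stood in 6 of the 38 (15.8%) and in 8.37% of tested genes' windows, CCGGAAG (ETS core) in 6 (15.8%) and 13.9%, CCAAT in 13 (34.2%) and 36.4%, and CACGTG (E-box) in 2 (5.26%) and 8.30%. TGACGTCA (the cyclic AMP response element) and TATAAA, a core promoter element, stood in 0 of the 38 and in 2.86% and 6.17% of tested genes' windows. A match describes letters and is not a binding site.

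Of the 46 genes, 45 passed the filter on low counts. Among them 5 rose (Cnot3, Cnot8, Edc3, Lsm4 and Lsm10), 1 fell (Dcp1a) and 39 were not called. That is 6 of 45 (13.3%), beside 14.5% of all 16588 genes tested (6.63% higher and 7.89% lower), so the share of calls lay near the background. At an unadjusted p under 0.05, 15 members passed (33.3%), beside 27.4% of all genes. Both KO libraries lay on one side of both WT libraries for 30 members (19 above, 11 below), beside 55.9% of all genes (27.8% above and 28.1% below).

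The changes were small. The median absolute log2 difference of the 45 was 0.17, beside 0.34 over all genes tested, and 2 of the 45 (Lsm10 and Exosc1) lay more than 0.5 from 0, beside 35.3% of all genes. Low counts widen such differences, so the same values were taken where the mean level reached 10 CPM. There the median absolute difference was 0.17 for 44 members and 0.23 for 8427 genes, 1 member and 16.1% of genes lay more than 0.5 from 0, and 5 members (11.4%) were called beside 25.3% of genes. At an unadjusted p under 0.05, 14 of these members passed (31.8%), beside 42.8% of genes. The groups did not overlap for 29 of them (65.9%), beside 67.2% of genes. The median signed difference of the 45 was 0.075, with 28 above 0 and 17 below. These values describe a list chosen by name and are no test of it.

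**Figure D1:**
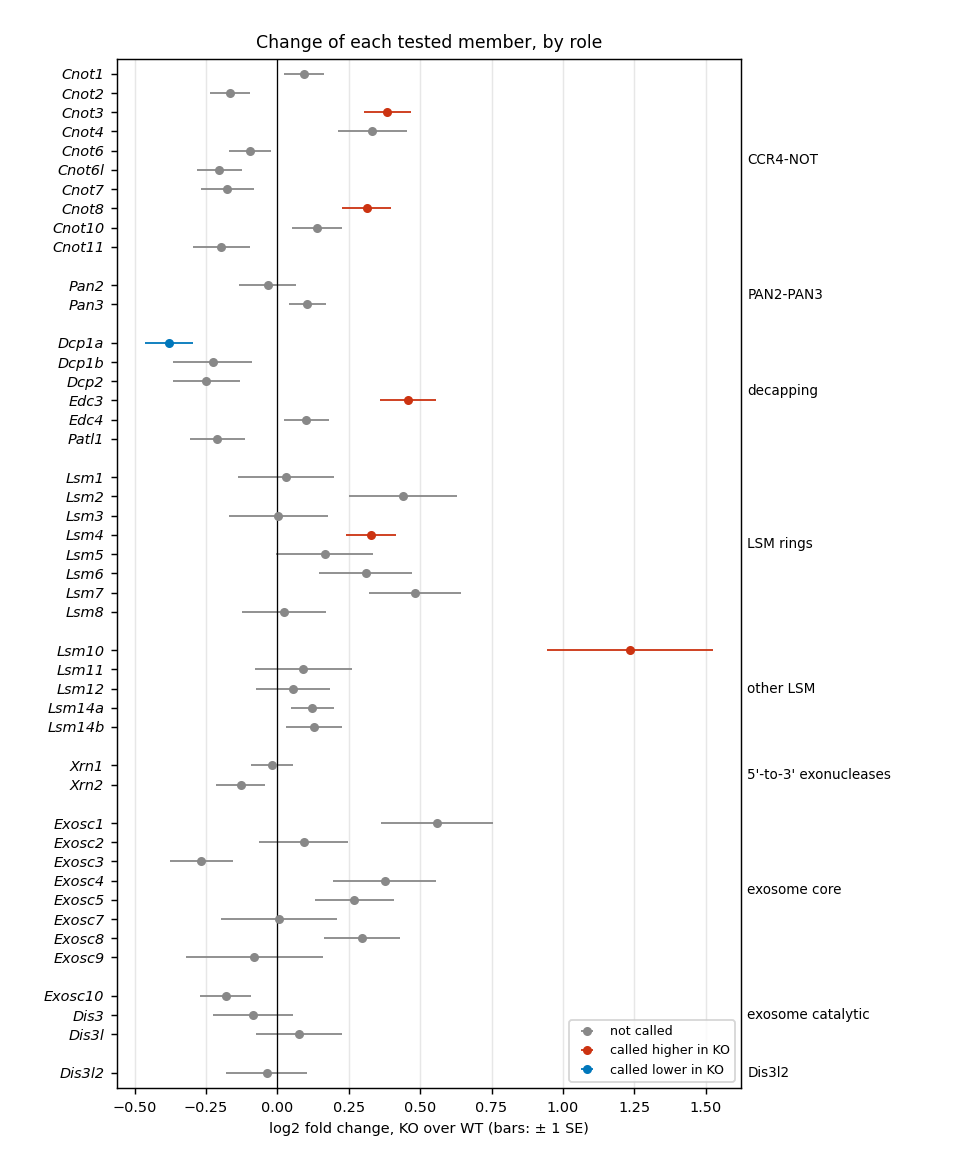
Log2 fold change of KO over WT (x axis, bars ± 1 SE) for the 45 tested members, grouped by role, with called members in red (higher) and blue (lower). Apart from Lsm10 at 1.23 and Exosc1 at 0.56, all points lie within 0.5 log2 units of 0, and 6 are coloured.

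The CCR4-NOT subunit genes moved in both directions. Of 10 tested, 2 rose, 0 fell and 8 were not called, with 5 log2 differences above 0, 5 below 0 and 5 at an unadjusted p under 0.05. Over all genes tested, 14.5% were called and 27.4% passed that unadjusted limit (25.3% and 42.8% where the mean reached 10 CPM). Among the 10, DESeq2 and limma-voom also called 2 higher and 0 lower. Cnot3, a subunit of the NOT module together with CNOT1 and CNOT2, stood at 105 and 102 CPM in WT against 135 and 135 in KO. Both KO libraries were higher and nearly equal (log2 difference 0.39 ± 0.081, adjusted p = 0.00753). Cnot3 (chromosome 7, 3645268 to 3661109, plus strand, GRCm38) shares 433 of its 7129 exon bases with the opposite-strand gene Leng1, which was not called (0.46 ± 0.16, adjusted p = 0.0848), and 86 with the microRNA gene Mir3572.

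The nuclease genes of CCR4-NOT form 2 paralog pairs. Cnot8 stood at 107 and 107 CPM in WT against 140.3 and 125 in KO (log2 difference 0.31 ± 0.085, adjusted p = 0.0282, chromosome 11, 58104153 to 58118594, plus strand). This edgeR call was not made by limma on RPKM. The groups did not overlap, but leaving out WT replicate 1, WT replicate 2 or KO replicate 1 ended the call (adjusted p = 0.0769, 0.0817 and 0.113, within 0.00318 to 0.192 over all settings). Its paralog Cnot7 stood at 131 and 113 CPM in WT against 107 and 109.5 in KO. Both KO libraries were lower there, and the difference was not called (-0.18 ± 0.093, adjusted p = 0.253). Per gene length, the Cnot8 to Cnot7 ratio of RPKM (counts scaled to gene length and library total) was 1.81 and 2.07 in WT and 2.90 and 2.52 in KO. The ratio was higher in both KO libraries, although an exact permutation test of 2 libraries against 2 cannot give a two-sided p below 0.333.

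In the other pair, Cnot6 stood at 403 and 418 CPM in WT against 404 and 364 in KO, overlapping between the groups (-0.096, 95% interval -0.25 to 0.063, adjusted p = 0.459). Cnot6l stood at 168 and 174 CPM in WT against 145 and 152 in KO. It was lower in both KO libraries without being called (-0.20, 95% interval -0.38 to -0.031, adjusted p = 0.114). The Cnot6l to Cnot6 ratio of RPKM was 0.268 and 0.267 in WT and 0.229 and 0.268 in KO, overlapping.

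The scaffold gene Cnot1 stood at 555 and 615 CPM in WT against 619.5 and 627 in KO (0.094, 95% interval -0.059 to 0.25, adjusted p = 0.447). Its partner Cnot2 stood at 333 and 337 CPM in WT against 306 and 289.9 in KO, lower in both KO libraries without passing the test (-0.17 ± 0.071, adjusted p = 0.145). Cnot4, which encodes a ubiquitin ligase, stood at 39.8 and 40.5 CPM in WT against 48.8 and 52.1 in KO, higher in both KO libraries and likewise not called (0.33 ± 0.12, adjusted p = 0.0884). Cnot10 (0.14 ± 0.087) and Cnot11 (-0.20 ± 0.098), whose products bind the amino-terminal part of CNOT1 together, lay on opposite sides of 0 and were not called. CNOT9 appears in the table under its older symbol Rqcd1, outside the naming rule. It stood at 51.1 and 60.2 CPM in WT against 59.9 and 50.2 in KO, overlapping between the groups (-0.015 ± 0.12, adjusted p = 0.966).

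Pan2 and Pan3, the nuclease and its partner in the complex that trims long tails, were not called, and 0 of the 2 reached an unadjusted p of 0.05 in edgeR, DESeq2 or limma-voom. Pan2 stood at 84.3 and 100.4 CPM in WT against 89.2 and 90.9 in KO, with both KO values between the WT values (-0.034, 95% interval -0.25 to 0.18, adjusted p = 0.893). Pan3 stood at 505 and 518 CPM in WT against 564 and 536 in KO, slightly higher in both KO libraries (0.11 ± 0.066, adjusted p = 0.347).

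The decapping genes split. Of 6 tested, 1 rose (Edc3), 1 fell (Dcp1a) and 4 were not called, beside 14.5% of all genes called (25.3% where the mean reached 10 CPM). Their median log2 difference was -0.22. Dcp1a, which encodes an activator that binds the decapping enzyme, stood at 125 and 134 CPM in WT against 102 and 96.6 in KO (chromosome 14, 30479535 to 30527063, plus strand). Both KO libraries were lower, and the level fell by 23.1% (log2 difference -0.38 ± 0.084, adjusted p = 0.00991). This edgeR call was not made by limma on RPKM. Leaving out WT replicate 2 ended the call (adjusted p = 0.0641, within 0.00111 to 0.177 over all settings).

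Dcp1b, its paralog, stood at 45.4 and 49.6 CPM in WT against 36.2 and 44.7 in KO (-0.23 ± 0.14, adjusted p = 0.331). Dcp2, the decapping enzyme gene, stood at 55.5 and 64.9 CPM in WT against 48.5 and 52.7 in KO (-0.25, 95% interval -0.50 to 0.0052, adjusted p = 0.192). Patl1, whose product links decapping to the ring of LSM1 to LSM7, stood at 96.2 and 98.7 CPM in WT against 78.9 and 89.2 in KO (-0.21 ± 0.096, adjusted p = 0.180). In these 3 genes, as in Dcp1a, both KO libraries lay below both WT libraries, and none of the 3 was called. That pattern was found in 28.1% of all genes tested, and in 2660 of 8427 where the mean reached 10 CPM.

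Edc3, which encodes a scaffold that stimulates decapping, moved the other way. It stood at 72.8 and 72.5 CPM in WT against 108 and 91.9 in KO (log2 difference 0.46 ± 0.099, adjusted p = 0.00849) and was called with each library left out in turn. Limma on RPKM did not call Edc3, and its adjusted p lay within 0.000115 to 0.177 over all settings. Edc3 (chromosome 9, 57708540 to 57752499, plus strand) shares 1284 of its 5804 exon bases (22.1%) with Clk3 on the opposite strand. Clk3, which encodes a kinase of SR proteins, was far more abundant and fell, at 1361 and 1300.3 CPM in WT against 833 and 903 in KO (-0.61 ± 0.067, adjusted p = 0.000108). The strand setting of the counting is not given in the sources, so reads of the shared stretch cannot be assigned to either gene. Edc4, the gene of a decapping scaffold, stood at 177 and 173 CPM in WT against 196 and 179 in KO and was not called (0.10 ± 0.079, adjusted p = 0.467).

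**Figure D2:**
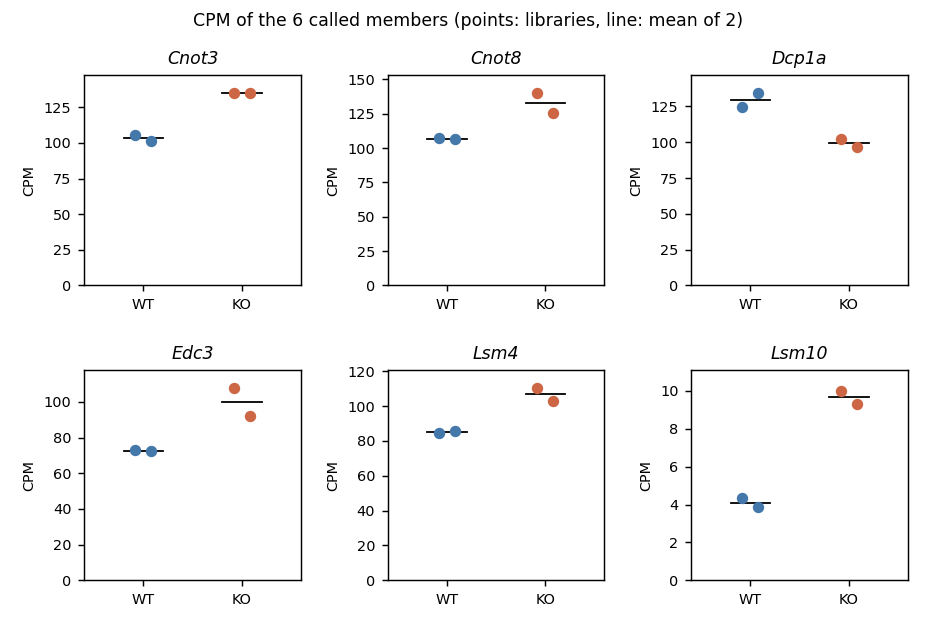
CPM (y axis, from 0) of the 6 called members in the 2 WT and 2 KO libraries, with points for libraries and a line for the mean of each group. In every panel the KO points lie on one side of the WT points. The scale differs between panels: Lsm10 stays at or under 9.99 CPM and the other 5 genes lie at 72.5 CPM or more.

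LSM proteins assemble into rings. LSM1 marks the cytoplasmic ring that promotes decapping, LSM8 the nuclear ring bound to U6 small nuclear RNA, and LSM2 to LSM7 are in both. Of these 8 genes, 1 rose (Lsm4), 0 fell and 7 were not called, beside 14.5% of all genes called (25.3% where the mean reached 10 CPM). An unadjusted p under 0.05 was reached by 3, beside 27.4% of all genes (42.8% where the mean reached 10 CPM). The median log2 difference of the 8 was 0.24. All 8 differences were above 0 under each library scaling tried, and 5 to 8 were with a library left out. With the filter at a mean of 1 CPM and with the length correction 7 were above 0. Of all genes tested 8326 of 16588 lay above 0, and 4507 of 8427 where the mean reached 10 CPM. The genes that tell the rings apart were among the 3 nearest to 0, Lsm1 at 0.029 (95% interval -0.34 to 0.39) and Lsm8 at 0.023 (-0.30 to 0.35), with Lsm3 at 0.0033 (-0.37 to 0.38).

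Lsm4 stood at 84.5 and 85.9 CPM in WT against 111 and 103 in KO (log2 difference 0.33 ± 0.087, adjusted p = 0.0250; chromosome 8, 70673248 to 70678752, plus strand). Both KO values were higher, but leaving out WT replicate 1, WT replicate 2 or KO replicate 1 ended the call (adjusted p = 0.101, 0.0632 and 0.0768, within 0.00954 to 0.128 over all settings). Lsm7 stood at 22.1 and 23.5 CPM in WT against 29.2 and 34.4 in KO, just outside the threshold (0.48 ± 0.16, adjusted p = 0.0654). Lsm2 (0.44 ± 0.19, adjusted p = 0.149), Lsm5 (0.17 ± 0.17, adjusted p = 0.615) and Lsm6 (0.31 ± 0.16, adjusted p = 0.250) also had both KO libraries above both WT libraries and were not called. That order of libraries was found in 27.8% of all genes tested, and in 3003 of 8427 where the mean reached 10 CPM.

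The greatest log2 difference among the 45 was that of Lsm10, which encodes a subunit of the U7 particle that acts in 3′ end cleavage of replication-dependent histone messages. Lsm10 had 155 and 142 counts in WT and 370 and 339 in KO, that is 4.32 and 3.89 CPM in WT against 9.99 and 9.32 in KO. It rose 2.35-fold (log2 difference 1.23 ± 0.29, adjusted p = 0.0134, 95% interval 0.60 to 1.86) and was called with each library left out in turn (adjusted p at most 0.0427, within 0.00145 to 0.0796 over all settings). Lsm10 (chromosome 4, 126096623 to 126098584, plus strand) shares no exon base with another annotated gene. Its U7 partner Lsm11 stood at 24.4 and 29.6 CPM in WT against 26.1 and 31.3 in KO, overlapping between the groups (0.091, 95% interval -0.28 to 0.46, adjusted p = 0.813). Lsm12 (0.054 ± 0.13), and Lsm14a (0.12 ± 0.075) and Lsm14b (0.13 ± 0.099), whose products bind decay factors in cytoplasmic granules, were not called.

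The genes of the 5′-to-3′ exonucleases were not called, and 0 of the 2 reached an unadjusted p of 0.05 in edgeR, DESeq2 or limma-voom. Xrn1, the cytoplasmic enzyme that digests decapped messages, stood at 284 and 307 CPM in WT against 299 and 284 in KO, overlapping between the groups (-0.018, 95% interval -0.18 to 0.14, adjusted p = 0.927). Xrn2, the nuclear enzyme that acts in transcription termination, stood at 132 and 147 CPM in WT against 130.3 and 124 in KO, lower in both KO libraries (-0.13, 95% interval -0.31 to 0.055, adjusted p = 0.373).

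Among the exosome core genes, 0 of 8 tested were called by edgeR, beside 14.5% of all genes (25.3% where the mean reached 10 CPM). At an unadjusted p under 0.05 stood 3, beside 27.4% of all genes (42.8% at that level). DESeq2 called 0, with 1 under that limit, and limma-voom 1 (Exosc1). Exosc1, which encodes a cap subunit of the ring, stood at 14.4 and 12.02 CPM in WT against 19.6 and 19.3 in KO (0.56 ± 0.20, adjusted p = 0.0806). Exosc3, another cap subunit gene, stood at 54.7 and 56.1 CPM in WT against 45.99 and 46.03 in KO (-0.27 ± 0.11, adjusted p = 0.137). Exosc1 thus lay above 0 and Exosc3 below, neither called, and the third, Exosc2, overlapped between the groups (0.092 ± 0.16). Of the ring subunit genes, Exosc4 (0.38 ± 0.18), Exosc5 (0.27 ± 0.14) and Exosc8 (0.30 ± 0.13) had both KO libraries above both WT libraries. So had 27.8% of all genes, and 3003 of 8427 where the mean reached 10 CPM. Exosc7 (0.0050 ± 0.20) and Exosc9 (-0.081 ± 0.24) overlapped. Exosc4 shares 385 of its 1945 exon bases with Oplah (0.63 ± 0.25, adjusted p = 0.118), and Exosc9 shares 510 of its 4709 exon bases with Ccna2, a cyclin gene that rose (0.59 ± 0.15, adjusted p = 0.0222).

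Exosc6, the remaining ring subunit gene, was listed at 0 counts in all 4 libraries and was not tested. A count of 0 allows up to 3 counts, or 0.0810 to 0.0837 CPM, as a limit on counted reads and not on transcripts. All 1326 of its exon bases (chromosome 8, 111056339 to 111057664, plus strand, GRCm38) lie within exons of Aars on the same strand in GENCODE release M21. Aars, an alanyl-tRNA synthetase gene, stood at 68.9 and 84.1 CPM in WT against 77.5 and 78.9 in KO (0.035 ± 0.11, adjusted p = 0.902). The level of Exosc6 can therefore not be read from these counts.

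The genes of the exosome's nucleases were not called either, with 0 of 3 at an unadjusted p under 0.05 in edgeR and in DESeq2 and 1 in limma-voom. Exosc10, the nuclear nuclease, stood at 139 and 143 CPM in WT against 134 and 114 in KO, lower in both KO libraries (-0.18, 95% interval -0.38 to 0.014, adjusted p = 0.218). Dis3, the main nuclease of the nuclear exosome, stood at 52.1 and 40.7 CPM in WT against 45.4 and 41.96 in KO, overlapping (-0.085, 95% interval -0.39 to 0.22, adjusted p = 0.783). Dis3l, its cytoplasmic counterpart, stood at 26.99 and 31.2 CPM in WT against 31.4 and 29.8 in KO, also overlapping (0.075, 95% interval -0.25 to 0.40, adjusted p = 0.829). Dis3l2, which digests uridylated RNA without the exosome, stood at 31.1 and 33.7 CPM in WT against 32.5 and 30.6 in KO (-0.038, 95% interval -0.35 to 0.27, adjusted p = 0.921). Among the enzyme genes not called, the intervals of Dcp2 and Dis3 reached a drop as large as that fitted for Dcp1a (-0.379). Those of Cnot6l (-0.376), Cnot7 (-0.377) and Exosc10 (-0.376) ended so near it that they do not set these genes apart. The intervals of Cnot6, Pan2, Xrn1, Xrn2, Dis3l and Dis3l2 did not reach it.

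Per gene length, levels differed far more between members than between genotypes. In WT the deposited RPKM ran from 2.34 ± 0.0590 (SD, n = 2) for Exosc7 to 82.2 ± 0.779 for Cnot2, and Lsm4 beside it, at 82.04 ± 0.949, did not differ from Cnot2 beyond the spread. Cnot6 (62.2 ± 1.62 RPKM), Lsm14b (47.2 ± 3.61), Exosc3 (41.9 ± 0.765) and Cnot8 (40.6 ± 0.236) followed. Within CCR4-NOT, Cnot4 was lowest at 4.11 ± 0.0495 RPKM. The exosome core genes tested ran from that of Exosc7 to that of Exosc3, although their proteins share 1 ring. Part of that range is the divisor, as the deposited length is 6013 bases for Exosc7 and 1324 for Exosc3. In CPM their WT means were 14.1 and 55.4. As a ratio, the widest gap between genotypes was that of Lsm10, at 4.58 and 4.12 RPKM in WT against 10.6 and 9.88 in KO.

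**Figure D3:**
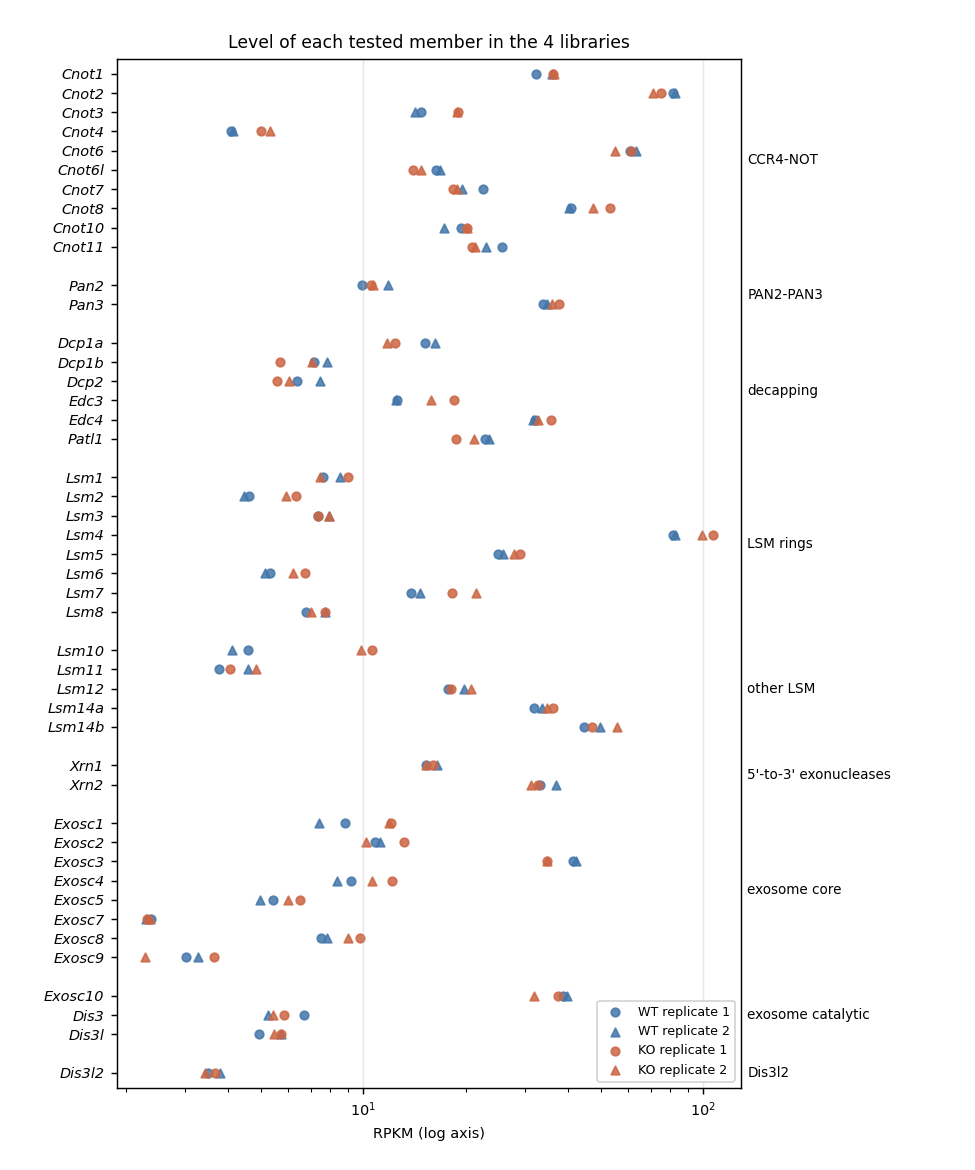
Deposited RPKM (x axis, log scale) of the 45 tested members in each WT (blue) and KO (orange) library, grouped by role. WT means span 2.34 RPKM (Exosc7) to 82.2 RPKM (Cnot2), while the 4 symbols of 1 gene usually lie close together.

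Shorter members had the higher log2 differences. The 12 tested members under 3000 bases had medians of 0.25 (4 members under 1500 bases) and 0.22 (8 members from 1500 bases up), and 11 of the 12 were above 0. The 15 members from 3000 bases up to 6000 and the 18 of 6000 bases or more had medians of 0.023 and -0.0065. Over all genes tested the medians in these 4 classes were 0.032, 0.052, -0.0017 and -0.039. Across the 45 members Pearson's r of log2 difference with log2 length was -0.42 and Spearman's rho -0.32, beside -0.025 and -0.049 across all genes. Among the shorter members are Lsm10 (943 bases, 1.23) and Exosc1 (0.56). The deposited length of Exosc1 is 1622 bases, while its exon length in GENCODE release M21 is 4053. These are descriptions across genes that share 4 libraries. With a correction for gene length all 6 calls were kept and Cnot4 was called as well (adjusted p = 0.0465, within 0.0465 to 0.375 over all settings).

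Partner genes of this machinery were read from 3 lists. Of 20 tested exosome cofactors, 3 rose, 3 fell and 14 were not called, beside 14.5% of all genes called (25.3% where the mean reached 10 CPM), with a median of -0.026. Those that fell were Skiv2l2, the gene of the nuclear helicase MTR4, Rbm7, of the nuclear exosome targeting complex, and Nrde2, whose product binds MTR4. Other genes whose products work with MTR4 lay on both sides of 0. Above it were Zfc3h1, which rose, and Zcchc7 (0.41 ± 0.13, adjusted p = 0.0569) and Zcchc8 (0.14 ± 0.077, adjusted p = 0.260), which were not called. Below it, and not called, were Papd5 (-0.25 ± 0.080, adjusted p = 0.0528), Mphosph6 (-0.20 ± 0.18, adjusted p = 0.558) and Papd7 (-0.024 ± 0.12, adjusted p = 0.941). Nrde2 stood at 88.3 and 96.4 CPM in WT against 56.4 and 50.9 in KO (-0.78 ± 0.10, adjusted p = 0.000357). Rbm7 stood at 117 and 117 CPM in WT against 85.95 and 79.9 in KO (-0.49 ± 0.086, adjusted p = 0.00252). Skiv2l2 stood at 76.5 and 86.8 CPM in WT against 62.1 and 51.1 in KO (-0.53 ± 0.12, adjusted p = 0.00917, within 4.54e-05 to 0.209 over all settings). It shares 452 of its 6404 exon bases with Plpp1, and limma on RPKM did not call it. All 3 were called with each library left out in turn. Skiv2l, the helicase gene of the cytoplasmic SKI complex, was chosen after its values were seen and stood at 235 and 235 CPM in WT against 232 and 237 in KO, overlapping (-0.0036, 95% interval -0.16 to 0.16, adjusted p = 0.985).

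The genes of the list that rose were Zfc3h1, Ncbp2 and Srrt. Zfc3h1, whose product links polyadenylated nuclear RNA to the exosome, stood at 111 and 101 CPM in WT against 158 and 158 in KO (0.58 ± 0.085, adjusted p = 0.000754). Ncbp2, the small subunit of the nuclear cap-binding complex, stood at 26.04 and 28.6 CPM in WT against 47.8 and 43.7 in KO (0.75 ± 0.14, adjusted p = 0.00317). Srrt (ARS2), whose product binds that complex, stood at 393 and 406 CPM in WT against 519.7 and 511 in KO (0.37 ± 0.067, adjusted p = 0.00298). In each the KO libraries lay above the WT libraries, and each was called with any library left out.

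Of 12 decapping and cap cofactors, 1 rose, 0 fell and 11 were not called. Among all genes 14.5% were called (25.3% where the mean reached 10 CPM). At an unadjusted p under 0.05 stood 5 of the 12, beside 27.4% of all genes (42.8% at that level). DESeq2 called 2 higher and limma-voom 3, and neither called any lower. Eif4enif1 (4E-T), whose product bridges the cap-binding protein and the decay machinery, stood at 88.7 and 104 CPM in WT against 125 and 119 in KO (0.34 ± 0.093, adjusted p = 0.0284). This edgeR call was not made by limma on RPKM. Leaving out WT replicate 1 ended that call (adjusted p = 0.258, within 0.00387 to 0.262 over all settings), and without KO replicate 2 the list had 2 called higher. Ddx6, the helicase that connects CCR4-NOT with decapping, was chosen after its values were seen and stood at 462 and 502 CPM in WT against 559 and 555 in KO, not called (0.21 ± 0.069, adjusted p = 0.0606).

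Of 20 other deadenylation genes, 6 fell, 0 rose and 14 were not called, beside 7.89% of all genes called lower and 6.63% higher. Where the mean reached 10 CPM, 1125 of 8427 genes were called lower and 1007 higher. The list had 10 genes at an unadjusted p under 0.05, which 27.4% of all genes passed (42.8% where the mean reached 10 CPM). Its median log2 difference was -0.24. DESeq2 called 7 lower and 0 higher, and limma-voom 8 lower and 1 higher. Without WT replicate 1, edgeR called 3 lower and 1 higher. Btg1 and Btg2 encode antiproliferative adaptors that bind the CAF1 nucleases and stimulate deadenylation, and Btg3 is of the same family. Btg1 stood at 1139.8 and 1296 CPM in WT against 809 and 846 in KO (-0.55 ± 0.072, adjusted p = 0.000344). Btg2 stood at 429.6 and 489 CPM in WT against 308 and 332 in KO (-0.52 ± 0.081, adjusted p = 0.00116). Btg3 stood at 43.1 and 45.8 CPM in WT against 18.9 and 22.5 in KO (-1.10 ± 0.15, adjusted p = 0.000516), and in GENCODE release M21, whose model is longer than the deposited gene length of 1439 bases, it shares 695 of its 4014 exon bases with the opposite-strand gene Cxadr. In all 3 genes both KO libraries lay below both WT libraries, and the calls were kept with any library left out.

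The other genes of that list that fell were named after their values were seen: Pabpc4 (-0.36 ± 0.081, adjusted p = 0.0111), a poly(A)-binding protein gene, Nanos1 (-0.79 ± 0.19, adjusted p = 0.0146), of a family that recruits CCR4-NOT, and Noct (-0.43 ± 0.12, adjusted p = 0.0371), a relative of the CCR4 nucleases. The Pabpc4 call ended without WT replicate 1 (adjusted p = 0.0835, within 0.00157 to 0.127 over all settings). The Nanos1 call ended without WT replicate 1 or KO replicate 1 (0.0615 and 0.0608, within 0.000952 to 0.155). The Noct call ended when WT replicate 1, WT replicate 2 or KO replicate 2 was dropped (0.164, 0.0581 and 0.141, within 0.0126 to 0.312) and with the length correction (0.0706). Limma on RPKM called neither Nanos1 nor Noct. The log2 differences without a library ran from -0.40 to -0.31 for Pabpc4, -0.94 to -0.64 for Nanos1 and -0.52 to -0.33 for Noct, all below 0, in fits with 1 sample fewer.

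**Figure D4:**
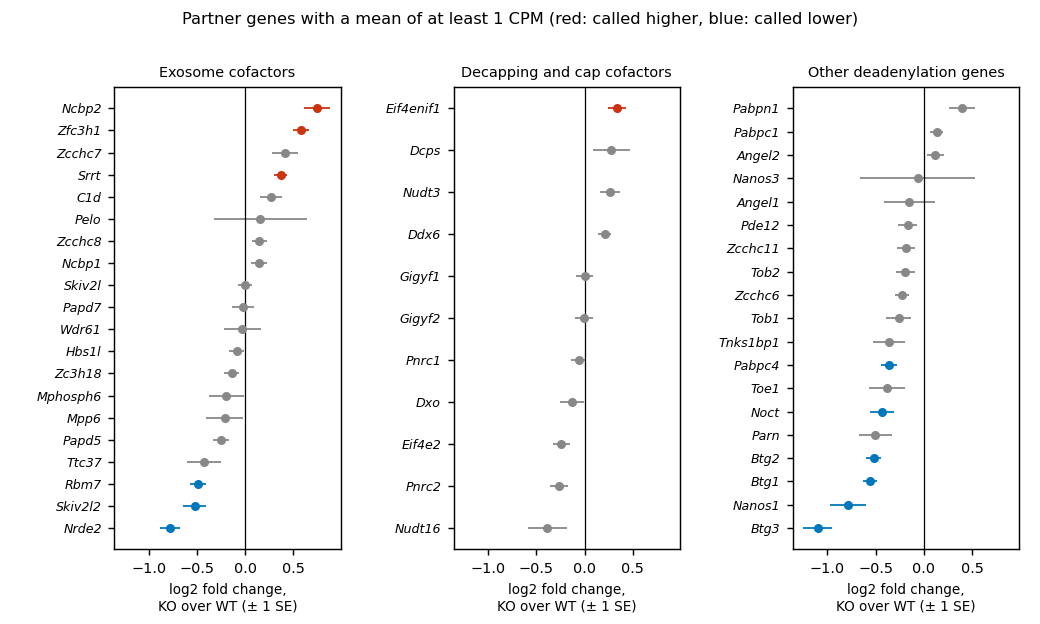
Log2 fold change of KO over WT (x axis, bars ± 1 SE) for partner genes averaging 1 CPM or more, in 3 lists, red where called higher and blue where called lower. In the exosome cofactor panel 3 genes are red and 3 blue, in the decapping panel 1 is red, and in the deadenylation panel 6 are blue.

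Leaving out a library changed some calls among the 45 members. The number called higher was 3 without WT replicate 1, 3 without WT replicate 2, 4 without KO replicate 1 and 5 without KO replicate 2, and the number called lower was 0 without WT replicate 2 and 1 in the other 3 fits. Cnot3, Edc3 and Lsm10 were called in all 4 of these fits. The plot of the 6 genes by analysis setting shows that each kept its sign in the edgeR fit and all 16 other settings, while the calls varied. The sign could hardly change, as the groups did not overlap in any of the 6.

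**Figure D5:**
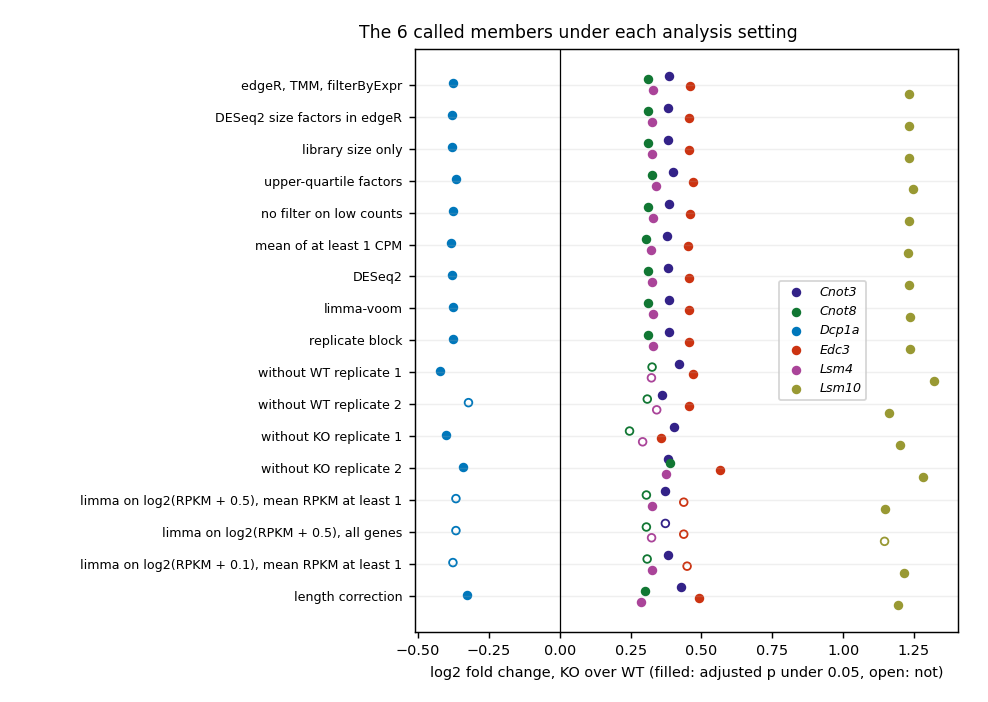
Log2 fold change of KO over WT (x axis) of the 6 called members under the edgeR fit and 16 other settings (y axis), filled where the adjusted p was under 0.05. Dcp1a lies below 0 throughout and the other 5 above 0. Open circles stand in the fits that leave out a WT library or KO replicate 1 and in those on RPKM.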

How the data were processed

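RNA sequencing libraries of sorted DP thymocytes, 2 WT and 2 KO, were grouped by the labels. According to the submitters' processing notes, the upstream tools included STAR 2.6.0a and HTSeq 0.6.1 with GRCm38 (mm10), besides FastQC 0.11.5, cutadapt 1.17 and DESeq2 1.24.0. For the strand setting and the annotation release, the answer is "not given in the sources used here". The authors deposited raw counts per gene and library, and a table of RPKM with gene lengths. All deposited RPKM values above 0, among 214860 compared, were equal to the count divided by length and library total, to a relative tolerance of 1e-06.

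The main test of the counts was the quasi-likelihood test of edgeR 4.0.16 (robust, TMM factors 0.993 to 1.01, filterByExpr) run in R 4.3.3. The model had no term besides genotype, with two-sided p-values adjusted by the Benjamini-Hochberg method over 16588 genes. SEs and 95% intervals came from the fold change, the F statistic and its degrees of freedom. The scripts were tested on simulated counts, with differences given to genes drawn from those that passed the filter. The edgeR test called 2 of 50 genes given a log2 difference of 0.3 and 10 of 49 given 0.5. It called 24 of 48 given 1 and 32 of 45 given 2, with 10 false calls. Small differences were thus often missed. Libraries of a group differed beyond counting noise (chi-square per degree of freedom 16.7 for WT and 19.0 for KO, and 58.4 to 71.4 between groups), so each counted as 1 sample. Alternatives were DESeq2 1.42.0, limma 3.58.1 (voom, and log2 of RPKM plus 0.5 or 0.1), other scalings and filters, a replicate block, each library left out, and a length correction. The members, lists and tests were chosen with earlier results of these data known. By the rule for named genes, full values were given for called members, the CCR4-NOT scaffold and the enzyme genes, and for at most 3 called genes per direction in each partner list; other named genes follow their role. The symbol Mpp6 among the exosome cofactors names a membrane scaffold gene in this annotation and was not called. Coordinates and exon overlaps are from GENCODE release M21, whose exon length equalled the deposited gene length for 44 of 46 members. Limits for a count of 0 cover counting error only. Figures were drawn with matplotlib 3.10.9.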

Additional observations from a re-analysis of the deposited data

How the results depend on the processing

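None of the 6 called members changed sign under any of the 16 alternatives. Such a change could hardly occur, as these genes were chosen by their calls on the same libraries and their groups did not overlap. Limma on log2(RPKM + 0.5), with a mean RPKM of 1 as the minimum, called 3 members higher and 0 lower (538 and 662 of all genes), with 13 members at an unadjusted p under 0.05. With 0.1 added instead it called 3 and 0 (540 and 661 of all genes). Over all genes with no minimum it called 0 members and 0 genes in either direction, with 12 members and 4063 genes at an unadjusted p under 0.05, and Srsf1 itself missed the threshold (-1.34, adjusted p = 0.0553, within 1.18e-39 to 0.0553 over all settings). The cause was not tested. With each library left out in turn, 3 to 5 members were called higher and 0 to 1 lower.

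Uncalled members near 0 changed sign. With a mean of 1 CPM as the filter these were Lsm3 (-0.0035) and Exosc7 (-0.0017), and with the length correction, chosen after seeing the data, Pan2 (0.018), Lsm3 (-0.0059), Xrn1 (0.055) and Dis3l2 (0.016). With a library left out, log2 differences ran from -0.053 to 0.071 for Lsm3, -0.018 to 0.038 for Exosc7, -0.097 to 0.16 for Lsm1, -0.060 to 0.12 for Lsm8, -0.049 to 0.24 for Lsm11, -0.049 to 0.16 for Lsm12, -0.25 to 0.11 for Dis3, -0.019 to 0.18 for Dis3l, -0.15 to 0.099 for Pan2, -0.068 to 0.042 for Xrn1, -0.087 to 0.022 for Dis3l2, -0.090 to 0.27 for Exosc2, -0.0027 to 0.26 for Lsm14b and -0.44 to 0.21 for Exosc9.

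The replicate numbers were not shown to pair the libraries (correlation of same-numbered deviations -0.047). With the replicate block 5 members were called higher and 1 lower, with 1304 and 1505 of all genes. With 2 libraries per group, the intervals given set what can be told from 0.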
